A study of Mus musculus with 16 samples.

Results

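The collagen chain genes encode the polypeptides that wind into the triple helices of collagens. They were taken as every gene of the expression table whose symbol is Col, a number, the letter a and a number. This gave 44 genes among 46206 distinct symbols, each with 1 entry in the table. By the kind of structure the chains build, 11 were grouped as fibrillar, 8 as basement membrane, 9 as network (hexagonal networks and beaded filaments) and 16 as minor (fibril-associated, membrane-spanning, anchoring and other chains). RNA had been sequenced from 4 fat depots of male C57BL66/J mice, all made obese by a high-fat diet, with 4 libraries per depot and 16 in all. The depots were thigh adipose tissue (tAT), brown adipose tissue (BAT), epididymal white fat (eWAT, a visceral depot) and inguinal white fat (iWAT, a subcutaneous depot). The groups thus shared the diet, the sex and the strain, and the labels give no other treatment or allele. Whether each library stands for its own mouse is not in the labels, so a p-value here reflects variation among these libraries, part or all of which may be technical.

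Collagens are the main structural proteins of the matrix around fat cells. The chains are hydroxylated and folded with their partners in the endoplasmic reticulum, secreted, trimmed and cross-linked. Types I, III and V form the fibrils of connective tissue. Type IV, with types XV and XVIII, belongs to the basement membrane that surrounds each adipocyte and each capillary, and type VI forms beaded filaments close to cells. Matrix is known to build up in white fat in obesity, and type VI collagen has been linked in mice to how far adipocytes can enlarge.

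Sequences before a RefSeq start are given for 7 chains on which the depot differences turn. They are the chains of type VI collagen that did not keep the same proportion in every depot (Col6a1, Col6a2, Col6a3 and Col6a5), the X-linked neighbours Col4a5 and Col4a6, both highest in eWAT, and Col27a1, which ran opposite to the abundant fibrillar chains. Of the 44 genes, 35 matched a promoter window of RefSeq by symbol. The sequences are from RefSeq on GRCm38.p6, 5′ to 3′ on the strand of the gene, and cover the 250 bases before a RefSeq start, cut where an annotated exon begins. On the minus strand, Col6a1 is chr10:76726169-76726294, Col6a2 is chr10:76623631-76623880, Col6a3 is chr1:90843972-90844221 and Col6a5 is chr9:105960644-105960893. Col4a5 is chrX:141475169-141475384 on the plus strand, Col4a6 is chrX:141474077-141474326 on the minus strand and Col27a1 is chr4:63215162-63215411 on the plus strand. In GENCODE vM21 the Col27a1 gene runs from 63214004 to 63334991, so its window lies inside the gene as annotated there, downstream of its start. Capitals mark matches to CCAAT or GGGCGG on either strand, and TATAAA was also searched.
Col6a1: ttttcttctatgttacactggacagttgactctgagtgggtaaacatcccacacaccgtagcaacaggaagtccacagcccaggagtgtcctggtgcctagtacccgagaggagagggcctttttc
Col6a2: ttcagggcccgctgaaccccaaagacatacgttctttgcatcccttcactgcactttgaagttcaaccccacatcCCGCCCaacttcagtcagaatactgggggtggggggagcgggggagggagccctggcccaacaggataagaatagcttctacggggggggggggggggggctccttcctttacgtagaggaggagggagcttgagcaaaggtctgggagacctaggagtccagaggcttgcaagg
Col6a3: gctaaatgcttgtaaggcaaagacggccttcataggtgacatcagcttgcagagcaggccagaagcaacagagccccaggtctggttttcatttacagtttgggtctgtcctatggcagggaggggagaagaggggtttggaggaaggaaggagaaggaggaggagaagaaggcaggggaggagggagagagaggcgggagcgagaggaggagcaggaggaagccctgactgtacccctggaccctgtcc
Col6a5: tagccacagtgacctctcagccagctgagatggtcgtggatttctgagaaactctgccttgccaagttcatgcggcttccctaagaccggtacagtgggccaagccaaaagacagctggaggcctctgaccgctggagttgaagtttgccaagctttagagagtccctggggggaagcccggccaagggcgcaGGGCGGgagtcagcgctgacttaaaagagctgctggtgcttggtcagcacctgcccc
Col4a5: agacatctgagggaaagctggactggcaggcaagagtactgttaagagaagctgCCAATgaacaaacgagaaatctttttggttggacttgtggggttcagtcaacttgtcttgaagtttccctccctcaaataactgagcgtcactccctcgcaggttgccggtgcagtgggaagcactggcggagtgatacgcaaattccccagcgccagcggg
Col4a6: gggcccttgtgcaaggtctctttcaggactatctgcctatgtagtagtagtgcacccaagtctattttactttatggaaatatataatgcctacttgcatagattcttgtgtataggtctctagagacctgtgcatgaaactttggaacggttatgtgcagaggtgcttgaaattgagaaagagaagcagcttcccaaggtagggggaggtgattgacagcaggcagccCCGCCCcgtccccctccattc
Col27a1: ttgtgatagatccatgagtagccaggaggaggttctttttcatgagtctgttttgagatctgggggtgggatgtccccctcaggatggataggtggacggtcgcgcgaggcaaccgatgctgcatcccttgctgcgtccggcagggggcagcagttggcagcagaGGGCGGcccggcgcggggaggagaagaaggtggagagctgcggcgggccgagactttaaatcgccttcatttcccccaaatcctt
CCAAT was found in 1 of the 7 (Col4a5) and GGGCGG in 4 (Col6a2, Col6a5, Col4a6 and Col27a1), whereas TATAAA was not found in these windows. Among 32851 RefSeq windows, 33.8% held CCAAT, 32.7% held GGGCGG and 12.4% held TATAAA within 250 bases. Over 216 bases, the length shown for Col4a5, the shares were 30.5%, 27.9% and 9.799%. Over 126 bases, the length shown for Col6a1, they were 16.9%, 13.5% and 6.26%. A match describes the letters alone. In the annotation, GENCODE vM21, Col4a6 and Col4a5 lie on opposite strands with their starts facing each other and 1308 bases between them. Col4a1 and Col4a2 on chromosome 8 are also head to head and share 22 bases. Col6a2 and Col6a1 lie on the same strand of chromosome 10 with 85.2 kb between them, and Col3a1 and Col5a2 on chromosome 1 have 24.6 kb between their ends.

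The deposited unit was FPKM, fragments per length of transcript and per depth of the library, so levels of different genes can be set side by side per length, while the number of reads is unknown. The sum of FPKM per library ranged from 818815 to 1074120, and 12447 to 14286 symbols per library reached 1 FPKM. The 3 brown adipocyte markers (Ucp1, Cidea and Cox8b) summed to 890.3 to 2606 FPKM in tAT, 10831 to 14269.7 in BAT, 28.1 to 62.2 in eWAT and 105 to 193 in iWAT. The 10 skeletal muscle markers summed to 22163, 22336 and 14229 FPKM in tAT 1, 2 and 4 but to 279 in tAT 3. They summed to 2731 and 2167 in BAT 3 and 4, with 143 and 124 in BAT 1 and 2, and to at most 79.4 in eWAT and 672 in iWAT. Muscle RNA thus stood out in 3 tAT libraries and 2 BAT libraries, and results are also given without these 5.

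Collagen RNA was lowest in BAT, intermediate in tAT and highest in the white depots. The 44 genes together summed to 1413, 1578, 974 and 984 FPKM in tAT, 261, 279, 213 and 203 in BAT, 2749.5, 2693, 2257 and 2467 in eWAT and 3037, 3699.99, 2129 and 2303 in iWAT. No tAT library overlapped a library of another depot in this sum, whereas eWAT and iWAT overlapped. As a share of all FPKM in a library, collagens took 0.131% ± 0.0409 in tAT, 0.0283% ± 0.00387 in BAT, 0.267% ± 0.0152 in eWAT and 0.308% ± 0.0897 in iWAT (SD, n = 4 libraries each). Fewer cells of a collagen-producing type and less collagen RNA per cell cannot be told apart in whole tissue. The 6 fibroblast markers (Pdgfra, Pdgfrb, Dpt, Pi16, Dpp4 and Fap) summed to 582 to 678 FPKM in tAT, 33.7 to 41.7 in BAT, 253 to 300.02 in eWAT and 801 to 904 in iWAT. Like the collagens they were lowest in BAT. Most of this sum was Dpt, dermatopontin, at 535 to 630.4 FPKM in tAT, 18.2 to 24.1 in BAT, 193 to 222 in eWAT and 685 to 778 in iWAT. By their means, Dpt and Pdgfrb were higher in tAT than in eWAT, the reverse of the collagen sum, whereas Pdgfra, Pi16, Dpp4 and Fap were lower in tAT than in eWAT, and their part in the result was not tested. The 6 endothelial markers were not low in BAT, at 156 to 189 FPKM in tAT, 118 to 196 in BAT, 63.9 to 165 in eWAT and 74.8 to 141 in iWAT.

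Of the 44 genes, 26 reached 1 FPKM in at least 4 libraries and were tested on log2(FPKM + 1), a scale that understates the change of low genes. A gene was called at an adjusted p under 0.05 over all 14991 tested symbols (limma), and the share of those symbols called in the same direction stands in brackets beside these counts. In tAT against iWAT, 4 collagens were higher (10.5%) and 16 lower (29.4%). In tAT against eWAT, 4 were higher (21.6%) and 18 lower (36.0%). In tAT against BAT, 20 were higher (58.6%) and 3 lower (11.2%). In BAT against iWAT, 3 were higher (12.7%) and 18 lower (61.5%). As shares of the 26, both counts were near those of all symbols, so these counts alone do not set the collagens apart. In BAT against eWAT, 3 were higher (15.2%) and 22 lower (59.0%). In eWAT against iWAT, 9 were higher (8.48%) and 2 lower (5.52%). Of the 26, BAT gave the lowest mean for 20, against 66.5% of all tested symbols, and eWAT the highest mean for 14, against 38.1%. A few low genes passed the filter only through the depot where they were high (Col6a5 and Col6a6 through eWAT, and Col7a1, Col11a2 and Col13a1 through tAT and BAT), so that some difference was built into their selection. Col28a1 reached 1 FPKM in 6 libraries, 3 of them tAT and 0 of them BAT.

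The median log2 difference of the 26 was -2.69 in BAT against iWAT, where that of all symbols was -0.54, and -2.87 in BAT against eWAT, where that of all symbols was -0.52. It was 1.54 in tAT against BAT, with 0.44 for all symbols. In tAT against iWAT it was -0.71 with -0.11 for all symbols, and in tAT against eWAT -0.82 with -0.084. In eWAT against iWAT it was 0.15 with -0.0027 for all symbols. Relative to all symbols, the collagens differed by -2.16 in BAT against iWAT, -2.36 in BAT against eWAT, 1.101 in tAT against BAT, -0.60 in tAT against iWAT and -0.74 in tAT against eWAT. The deposited scaling put most symbols lower in BAT, and a median-of-ratios scaling removed that tilt. In BAT against iWAT it gave 6 collagens higher and 18 lower, with 4695 and 4911 of all symbols, and quantile normalization gave 7 and 15, with 4958 and 4646. In tAT against BAT the median-of-ratios scaling gave 18 higher and 4 lower, with 4172 and 3939 of all symbols, and quantile normalization gave 16 and 5, with 3498 and 4210. In BAT against eWAT the median-of-ratios scaling gave 4 higher and 20 lower, with 5181 and 5231 of all symbols. In tAT against iWAT it gave 4 and 15, with 2438 and 3002, and in tAT against eWAT 4 and 18, with 4168 and 4501. Without the muscle-rich libraries, tAT 3 alone stood for tAT and was assumed to vary like the other groups. The counts were then 15 higher and 2 lower in tAT against BAT, with 4804 and 1120 of all symbols. Against iWAT they were 3 and 15, with 809 and 1929 of all symbols, and against eWAT 2 and 19, with 1438 and 3404. Over all libraries the counts of all symbols were 8783 higher and 1683 lower in tAT against BAT, 1575 and 4400 against iWAT, and 3242 and 5403 against eWAT.

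**Figure D1:**
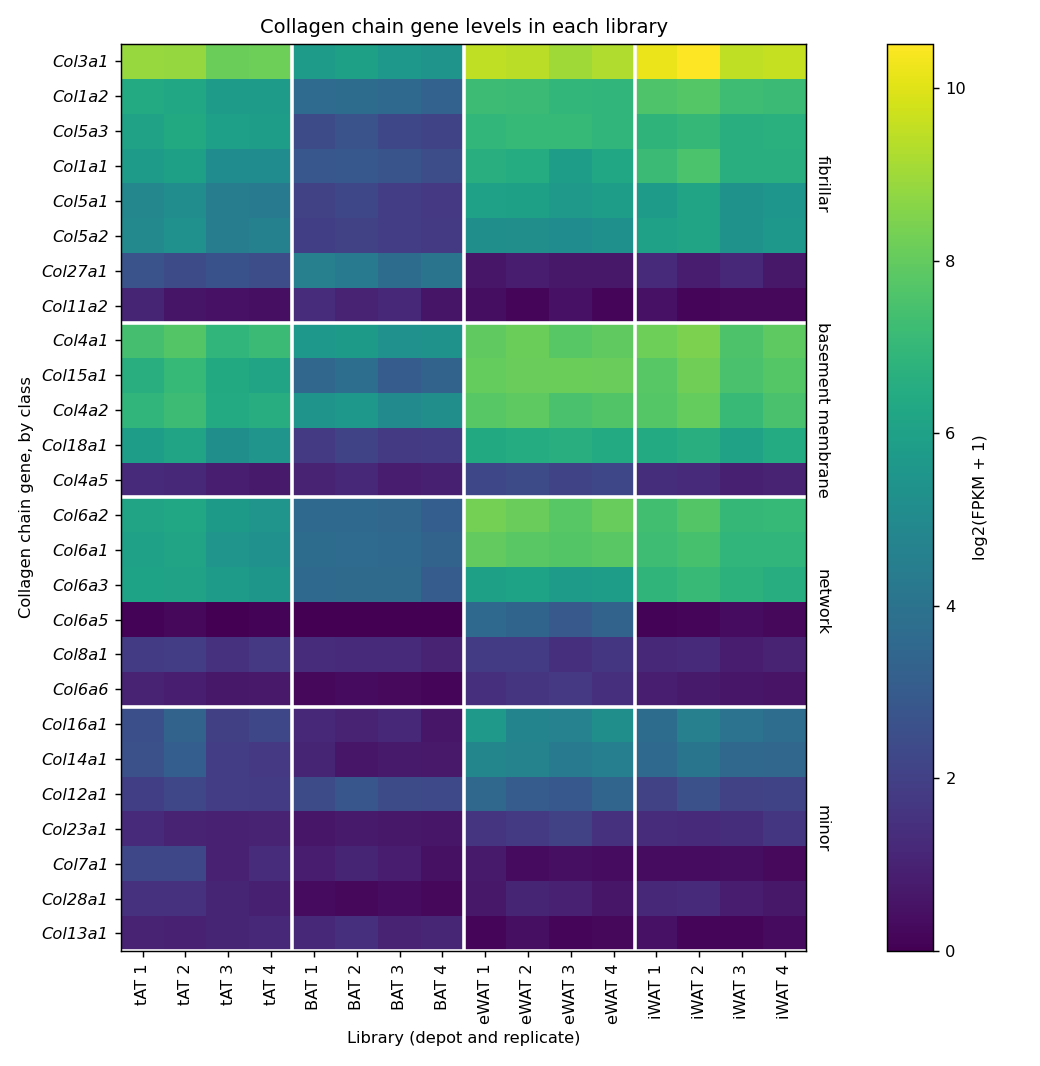
Level of the 26 tested collagen chain genes (rows, by class and mean level) in the 16 libraries (columns, by depot and replicate), as log2(FPKM + 1) on the colour scale from dark (low) to bright (high). Most rows are darkest in the 4 BAT libraries, Col27a1 is brightest there, and Col6a5 stands out in the 4 eWAT libraries, at 6.63 to 10.96 FPKM.

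**Figure D2:**
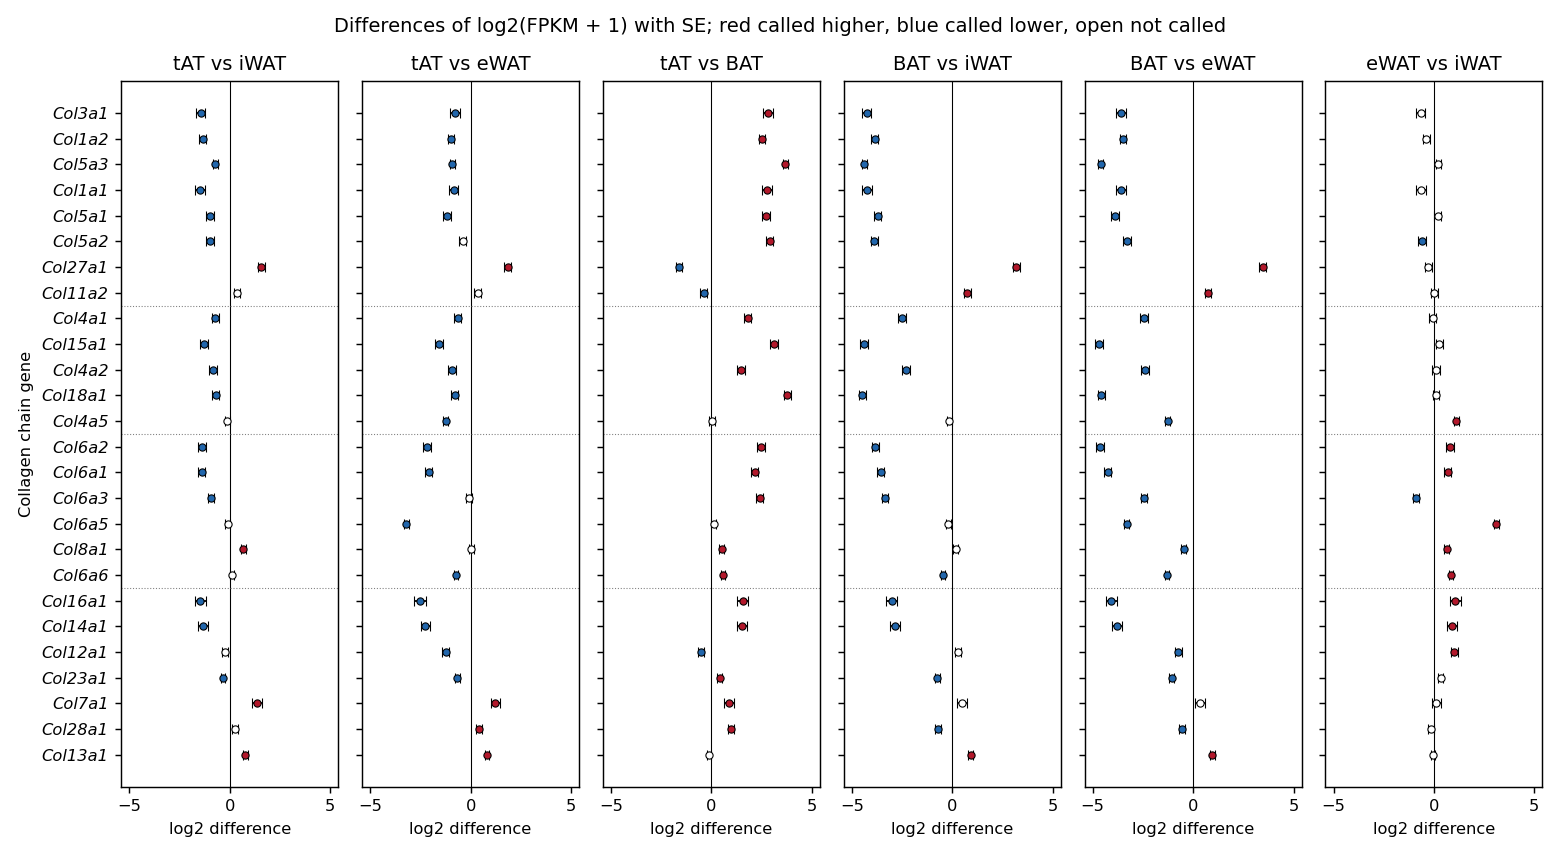
Difference of log2(FPKM + 1), first-named depot minus the second (x axis), for the 26 tested collagen chain genes (rows) in the 6 comparisons (panels), from limma; standard errors, 0.11 to 0.28, are mostly hidden by the points. Red points were called higher in the first-named depot, blue points lower and open points were not called: 20 are red in tAT against BAT and 22 are blue in BAT against eWAT. Of all tested symbols, 58.6% and 59.0% were called in these directions.

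Among the fibrillar chains, 6 abundant members had their lowest mean in BAT, whereas Col27a1 and the low Col11a2 had their highest mean there. Col3a1, the single chain of type III collagen, had the highest level of all collagens. It stood at 469, 466, 284 and 292 FPKM in tAT, 55.8, 61.9, 48.2 and 42.01 in BAT, 724, 693, 515 and 612 in eWAT and 1186, 1462, 738 and 770.4 in iWAT. No depot overlapped another, though the highest eWAT and the lowest iWAT library were close, and by its mean Col3a1 ranked 257 among all symbols in tAT, 1515 in BAT, 185 in eWAT and 102 in iWAT. The log2 difference was -4.25 ± 0.23 (SE) in BAT against iWAT (adjusted p = 1.78e-10), a 19.997-fold lower mean. It was 2.81 ± 0.23 in tAT against BAT (adjusted p = 4.68e-08) and -1.44 ± 0.23 in tAT against iWAT (adjusted p = 2.34e-04). In eWAT against iWAT it was not called (-0.66 ± 0.23, adjusted p = 0.0676), although it was without iWAT 3 (adjusted p = 0.0415). An exon of Gm47302 overlaps Col3a1 on the same strand, so reads there could be given to either.

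The chains of type I collagen, the main protein of fibrils, followed a similar order. Col1a1 stood at 53.4, 62.8, 33.6 and 33.3 FPKM in tAT, 6.29, 6.38, 5.57 and 4.54 in BAT, 99.2, 89.5, 59.2 and 77.5 in eWAT and 144, 183, 95.9 and 98.4 in iWAT. Col1a2 stood at 85.9, 78.5, 54.1 and 55.9 FPKM in tAT, 11.8, 12.2, 11.1 and 8.85 in BAT, 147, 143, 124 and 119 in eWAT and 197, 213, 151 and 141 in iWAT. In both genes every BAT library was below every other library, and eWAT and iWAT overlapped. Col1a1 was 22.9-fold and Col1a2 15.97-fold lower in BAT than in iWAT by their means (adjusted p = 3.40e-10 and 1.30e-11). In tAT, Col1a1 was 2.85-fold and Col1a2 2.56-fold lower than in iWAT (adjusted p = 2.56e-04 and 3.03e-05). In tAT against eWAT, quantile normalization ended the call for Col1a1 (-0.85 ± 0.24, adjusted p = 0.00707, and 0.0546 under that normalization). For Col1a1 in eWAT against iWAT, which was not called (-0.65 ± 0.24, adjusted p = 0.084), that normalization gave a lower call (-0.79, adjusted p = 0.0403). In tAT against eWAT it also ended the call for Col3a1 (-0.78 ± 0.23, adjusted p = 0.00877, and 0.219 under it).

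Type V collagen is a partner of type I in fibrils and limits their width. By its mean, Col5a3 was above Col1a1 in tAT and eWAT and below it in BAT and iWAT. The means of Col5a1 and Col5a2 were below those of both type I chains in each depot. Col5a3 stood at 65.3, 83.3, 60.4 and 58.2 FPKM in tAT, 4.45, 5.41, 3.87 and 3.49 in BAT, 125, 131, 129.5 and 119 in eWAT and 112, 128, 96.5 and 102 in iWAT. Its mean in BAT was 29.3-fold below eWAT (log2 difference -4.60 ± 0.13, adjusted p = 7.61e-14), and tAT was 15.5-fold above BAT (3.67 ± 0.13, adjusted p = 2.60e-12), with no overlap in either comparison. Col5a1 stood at 28.4, 34.97, 21.2 and 20.02 FPKM in tAT, 3.24, 3.87, 2.73 and 2.33 in BAT, 64.3, 62.03, 51.2 and 58.03 in eWAT and 55.3, 70.5, 40.3 and 44.6 in iWAT. Col5a2 stood at 29.7, 38.7, 20.04 and 23.4 FPKM in tAT, 2.87, 3.07, 2.71 and 2.42 in BAT, 36.4, 35.7, 33.7 and 37.4 in eWAT and 64.3, 69.3, 40.9 and 48.4 in iWAT. Both were lower in BAT than in each other depot, but they differed between the white depots. Col5a1 overlapped between eWAT and iWAT (0.19 ± 0.19, adjusted p = 0.532), whereas Col5a2 was lower in each eWAT library than in any iWAT library (-0.59 ± 0.18, adjusted p = 0.0381). The Col5a2 call was lost without eWAT 1, eWAT 2, eWAT 3, eWAT 4, iWAT 1, iWAT 2 or iWAT 4, with adjusted p of 0.0533 to 0.119. In tAT, Col5a2 overlapped eWAT and was not called (-0.39 ± 0.18, adjusted p = 0.0756), but it was called lower without tAT 2 (-0.55, adjusted p = 0.0102) and without the muscle-rich libraries (-0.80, adjusted p = 0.0238). Exons of 2810430I11Rik and Gm13372 overlap Col5a1 on the other strand, and the sources used here do not say if strand was used in counting.

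Col27a1, a fibrillar chain known from cartilage, ran the opposite way. It stood at 5.44, 4.22, 5.35 and 4.55 FPKM in tAT, 22.9, 18.8, 12.2 and 15.5 in BAT, 0.564, 0.7697, 0.585 and 0.613 in eWAT and 1.36, 0.741, 1.34 and 0.588 in iWAT. BAT was highest and tAT next, with no overlap between them or with the white depots, whose values overlapped each other. Its mean in BAT was 27.4-fold above eWAT (log2 difference 3.46 ± 0.17, adjusted p = 3.91e-11) and 17.2-fold above iWAT (3.18 ± 0.17, adjusted p = 1.38e-10). In tAT it was 4.85-fold above iWAT (1.57 ± 0.17, adjusted p = 1.14e-05) and 3.55-fold below BAT (-1.61 ± 0.17, adjusted p = 6.49e-07). The muscle-poor library tAT 3 lay within the range of the muscle-rich tAT libraries, and BAT 1 and 2, which held little muscle RNA, had the highest values. Within tAT, brown adipocyte markers were highest in tAT 3, at 2606 FPKM, beside 890, 915 and 1602 in tAT 1, 2 and 4. Col27a1 was instead highest in tAT 1, the tAT library lowest in these markers. The 9 tendon and cartilage markers stayed low, with sums of 1.76 to 3.09 FPKM in tAT, 0.782 to 1.17 in BAT, 1.69 to 3.35 in eWAT and 1.85 to 2.94 in iWAT, and Mkx, Tnmd, Acan and Matn1 were below 0.5 FPKM in every library. The part of muscle, tendon or cartilage in the Col27a1 result was not tested.

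Of the other fibrillar chains, Col11a2, a chain of type XI collagen, was chosen for mention after its values were seen. It stood at 0.3304 to 1.101 FPKM in tAT, 0.52004 to 1.497 in BAT, 0.111 to 0.421 in eWAT and 0.113 to 0.448 in iWAT. It was higher in BAT than in iWAT (0.76 ± 0.17, adjusted p = 7.79e-04) and eWAT (0.74 ± 0.17, adjusted p = 9.24e-04), with no overlap. Col11a2 passed the filter only through tAT and BAT, so part of these differences was built into its selection. Its lower value in tAT than in BAT (-0.39 ± 0.17, adjusted p = 0.0493) was lost without tAT 2, tAT 3, tAT 4, BAT 1, BAT 2, BAT 3, eWAT 1, eWAT 2, eWAT 4, iWAT 2, iWAT 3 or iWAT 4, with adjusted p of 0.0541 to 0.149. Col2a1, Col11a1 and Col24a1 did not reach the filter. Col24a1, also named after its values were seen, stood at 0.712, 0.349, 0.0548 and 0.226 FPKM in tAT and at most 0.0996 in BAT, 0.0469 in eWAT and 0.0774 in iWAT, and its lowest tAT value was in the muscle-poor library tAT 3.

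Among the basement membrane chains, Col4a1 and Col4a2, which assemble into the common form of type IV collagen, had the highest levels in BAT after Col3a1. Col4a1 stood at 171, 209, 121 and 142 FPKM in tAT, 48.003, 52.1, 38.96 and 40.5 in BAT, 248, 283, 221 and 244 in eWAT and 291, 345, 187 and 239 in iWAT. Col4a2 stood at 119.99, 148, 85.6 and 92.4 FPKM in tAT, 42.8, 47.3, 31.2 and 35.5 in BAT, 220.4, 239, 180.1 and 199 in eWAT and 213, 261, 139.7 and 178 in iWAT. BAT libraries were below all others in both genes, but by a smaller factor than in the main fibrillar chains. Col4a1 was 5.92-fold and Col4a2 5.05-fold lower in BAT than in iWAT (adjusted p = 5.87e-09 and 4.18e-08). In tAT, Col4a1 was 1.65-fold and Col4a2 1.77-fold lower than in iWAT (adjusted p = 0.00668 and 0.00453), with overlap between libraries. Under quantile normalization the Col4a1 call was lost in tAT against iWAT (adjusted p = 0.0544) and against eWAT (adjusted p = 0.214). Exons of these 2 genes overlap each other on opposite strands.

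Col15a1 and Col18a1 encode proteoglycan collagens of the basement membrane zone whose ends can be released as anti-angiogenic fragments. Col15a1 stood at 94.8, 130.03, 82.9 and 69.5 FPKM in tAT, 10.2, 12.8, 7.41 and 9.05 in BAT, 259, 273, 286 and 273 in eWAT and 221, 302, 180.4 and 213 in iWAT. Col18a1 stood at 57.5, 70.2, 36.8 and 43.7 FPKM in tAT, 2.49, 3.51, 2.41 and 2.66 in BAT, 82.5, 89.9, 98.3 and 84.3 in eWAT and 85.05, 96.5, 64.8 and 86.7 in iWAT. Each BAT value lay below every value of the other depots, and eWAT and iWAT overlapped in both genes. Against eWAT, BAT was 27.6-fold lower for Col15a1 (log2 difference -4.68 ± 0.19, adjusted p = 4.72e-12) and 32.1-fold lower for Col18a1 (-4.58 ± 0.17, adjusted p = 2.07e-12). Against BAT, tAT was 9.55-fold higher for Col15a1 (3.12 ± 0.19, adjusted p = 1.76e-09) and 18.8-fold higher for Col18a1 (3.78 ± 0.17, adjusted p = 5.46e-11). Against eWAT, tAT was 2.89-fold lower for Col15a1 (adjusted p = 5.94e-06) and 1.704-fold lower for Col18a1 (adjusted p = 9.92e-04). Exons of Gm12426 overlap Col15a1 on the other strand.

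The remaining type IV chains were low, and Col4a5 and Col4a6, named after their values were seen, stood out in eWAT. Col4a5, which pairs with Col4a6 in a specialised type IV network, had 1.46, 1.26, 0.843 and 0.6996 FPKM in tAT, 1.08, 1.25, 0.811 and 0.918 in BAT, 3.91, 4.24, 3.46 and 3.799 in eWAT and 1.62, 1.43, 0.875 and 1.06 in iWAT. Each eWAT library exceeded every other library, with log2 differences of 1.12 ± 0.13 for eWAT against iWAT (adjusted p = 4.82e-05), -1.27 ± 0.13 for BAT against eWAT (adjusted p = 3.00e-07) and -1.25 ± 0.13 for tAT against eWAT (adjusted p = 1.95e-06). Among tAT, BAT and iWAT it was not called, whereas quantile normalization put it lower in tAT than in BAT (-0.50, adjusted p = 0.00422) and higher in BAT than in iWAT (0.42, adjusted p = 0.00998). Col4a6 did not reach the filter and stood at 0.0551, 0.0551, 0.0298 and 0.0168 FPKM in tAT, 0.0573, 0.0261, 0.0121 and 0.0225 in BAT, 0.8199, 0.7899, 1.13 and 0.708 in eWAT and 0.0338, 0.0293, 0.0439 and 0.0239 in iWAT. Its eWAT libraries were all above the others, and without the filter it was called higher in eWAT than in iWAT (0.84, adjusted p = 2.53e-07), where 5.52% of 29427 symbols were called higher. Col4a3 and Col4a4, chains known from kidney basement membrane, reached at most 1.06 and 0.993 FPKM.

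Among the network chains, those of type VI collagen were lowest in BAT, and Col6a3 parted from Col6a1 and Col6a2 in eWAT. Col6a1 stood at 63.6, 69.9, 43.6 and 38.995 FPKM in tAT, 12.1, 11.9, 10.96 and 9.07 in BAT, 250.1, 223, 210.01 and 226 in eWAT and 152, 173, 121 and 121 in iWAT. Col6a2 stood at 68.8, 78.6, 51.8 and 43.2 FPKM in tAT, 10.9, 11.2, 9.97 and 7.84 in BAT, 314, 277, 221 and 268 in eWAT and 160.2, 207, 128 and 132 in iWAT. Both genes ran eWAT, iWAT, tAT and BAT from high to low, with no overlap between depots. Col6a3, the large chain whose cleaved end is known as endotrophin, stood at 67.01, 65.3, 53.9 and 47.03 FPKM in tAT, 10.95, 11.4, 11.53 and 7.37 in BAT, 62.8, 68.2, 54.6 and 56.6 in eWAT and 116, 135, 107 and 92.8 in iWAT. In Col6a3, eWAT overlapped tAT and lay below every iWAT library.

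Against iWAT, eWAT was 1.602-fold higher for Col6a1 (log2 difference 0.69 ± 0.17, adjusted p = 0.0149) and 1.72-fold higher for Col6a2 (0.80 ± 0.19, adjusted p = 0.0119), but 1.86-fold lower for Col6a3 (-0.88 ± 0.15, adjusted p = 0.00149). The Col6a1 call was lost without eWAT 1 or iWAT 4, with adjusted p of 0.0508 to 0.0542. In tAT against eWAT, Col6a1 was 4.21-fold and Col6a2 4.46-fold lower (adjusted p = 1.51e-07 and 3.00e-07), whereas Col6a3 was not called (-0.063 ± 0.15, adjusted p = 0.741). In BAT against eWAT, Col6a1 was 20.6-fold, Col6a2 27.1-fold and Col6a3 5.87-fold lower (adjusted p = 4.61e-12, 5.86e-12 and 5.69e-10). In tAT against BAT, Col6a1 was 4.904-fold, Col6a2 6.08-fold and Col6a3 5.65-fold higher (adjusted p = 3.18e-08, 2.43e-08 and 2.96e-09).

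Col6a5, a long type VI chain that resembles Col6a3, was found almost entirely in eWAT. It stood at 0.0689, 0.178, 0 and 0.0635 FPKM in tAT, 0, 0.00429, 0 and 0 in BAT, 10.96, 9.44, 6.63 and 9.16 in eWAT and 0.0623, 0.1004, 0.281 and 0.162 in iWAT. It passed the filter through eWAT alone, and a value listed at 0 can be a failed estimate in this table. The log2 difference of eWAT against iWAT, where no library was at 0, was 3.11 ± 0.12 (adjusted p = 6.64e-11). Col6a6 and Col8a2, named after their values were seen, were also highest in eWAT. Col6a6, another relative of Col6a3, had 0.595 to 1.04 FPKM in tAT, 0.126 to 0.251 in BAT, 1.72 to 2.33 in eWAT and 0.473 to 0.846 in iWAT (eWAT against iWAT 0.84 ± 0.11, adjusted p = 8.58e-05). Col6a6 too passed the filter through eWAT, so part of this difference was built into its selection. Its lower value in BAT than in iWAT (-0.47 ± 0.11, adjusted p = 8.12e-04) turned to 0.067 under quantile normalization. Col8a2, a chain of the hexagonal networks of type VIII collagen that did not reach the filter, had 0.0765, 0.0323, 0.05198 and 0.0263 FPKM in tAT, 0.0162, 0.00816, 0.0189 and 0.00877 in BAT, 0.819, 0.917, 0.658 and 0.8199 in eWAT and 0.0616, 0.0687, 0.0588 and 0.268 in iWAT. Without the filter it was called higher in eWAT than in iWAT (0.70, adjusted p = 4.64e-06). The mesothelial markers were high in the same libraries: Msln, Upk3b, Lrrn4 and Wt1, the 4 of the list, summed to 0.241 to 0.429 FPKM in tAT, 0.266 to 0.546 in BAT, 37.2 to 47.9 in eWAT and 0.1798 to 0.516 in iWAT, and Wt1 was listed at 0 in each library outside eWAT. Their part in the result was not tested.

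Col8a1, the partner of Col8a2, had another pattern and is named after its values were seen. It stood at 1.802 to 2.77 FPKM in tAT, 1.07 to 1.54 in BAT, 1.75 to 2.65 in eWAT and 0.808 to 1.36 in iWAT. It was higher in tAT than in iWAT (0.67 ± 0.12, adjusted p = 7.12e-04), a call lost when tAT 3 alone stood for tAT (adjusted p = 0.168). Its higher value in tAT than in BAT (0.50 ± 0.12, adjusted p = 0.00207) was lost under the median-of-ratios scaling (adjusted p = 0.258) and turned to -0.048 under quantile normalization. Its lower value in BAT than in eWAT (-0.46 ± 0.12, adjusted p = 0.00326) turned to 0.14 under quantile normalization. Col6a4, the gene beside Col6a5, reached at most 0.425 FPKM. Col10a1, a chain of growth plate cartilage named after its values were seen, did not reach the filter. It stood at 0.120 to 0.248 FPKM in BAT and at most 0.0587 in tAT, 0.0525 in eWAT and 0.0539 in iWAT. Without the filter it was called higher in BAT than in iWAT (0.22, adjusted p = 1.93e-05) and eWAT (0.21, adjusted p = 2.49e-05). Exons of Nt5dc1 overlap Col10a1 on the other strand.

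**Figure D3:**
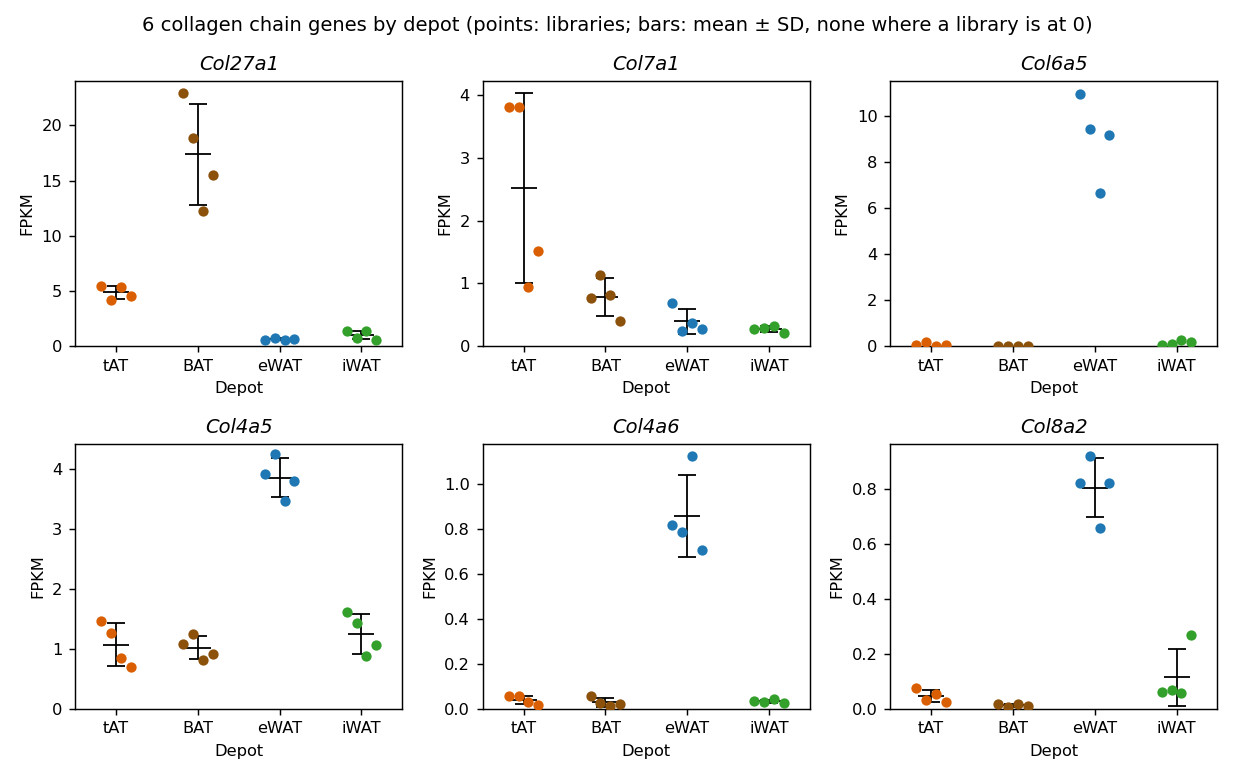
FPKM (y axis, linear from 0) of 6 collagen chain genes in the 4 depots (x axis); points are libraries and bars the mean ± SD, with no bars for Col6a5, which is listed at 0 in some libraries. Col27a1 is highest in BAT (12.2 to 22.9), Col7a1 is highest in tAT 1 and 2 (3.81 in each), and Col6a5, Col4a5, Col4a6 and Col8a2 are highest in the 4 eWAT libraries.

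Among the minor chains, the fibril-associated Col14a1 and Col16a1 were highest in eWAT and lowest in BAT, whereas Col12a1 had its lowest mean in tAT. Col16a1 stood at 4.94, 9.22, 2.99 and 3.901 FPKM in tAT, 1.24, 1.09, 1.24 and 0.547 in BAT, 48.9, 25.6, 24.4 and 37.2 in eWAT and 12.3, 22.9, 15.003 and 12.504 in iWAT. Col14a1 stood at 5.12, 7.74, 2.71 and 2.34 FPKM in tAT, 1.13, 0.574, 0.682 and 0.664 in BAT, 27.7, 24.8, 18.7 and 22.1 in eWAT and 11.1, 15.9, 10.7 and 10.2 in iWAT. Neither gene had any overlap between depots. Against eWAT, BAT was 33.1-fold lower for Col16a1 and 30.6-fold lower for Col14a1 (adjusted p = 3.29e-09 and 1.15e-09). Against eWAT, tAT was 6.47-fold lower for Col16a1 and 5.21-fold lower for Col14a1 (adjusted p = 3.72e-06 and 2.57e-06). Both were higher in eWAT than in iWAT, Col16a1 by 1.06 ± 0.28 (adjusted p = 0.0231) and Col14a1 by 0.91 ± 0.25 (adjusted p = 0.0234). The Col16a1 call was lost without eWAT 1, eWAT 4, iWAT 1 or iWAT 4, with a difference of 0.87 to 0.998 (adjusted p = 0.0642 to 0.0885). That for Col14a1 was lost without eWAT 1, eWAT 2, iWAT 1, iWAT 3 or iWAT 4, with a difference of 0.83 to 0.89 (adjusted p = 0.0556 to 0.0826). Col16a1 in tAT against BAT (1.55 ± 0.28, adjusted p = 1.95e-04) was not called with tAT 3 alone for tAT (0.88, adjusted p = 0.122).

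Col12a1, which binds the surface of type I fibrils, stood at 2.87, 3.66, 2.76 and 2.61 FPKM in tAT, 4.35, 5.98, 4.49 and 4.02 in BAT, 10.9, 7.31, 6.396 and 9.65 in eWAT and 3.04, 5.13, 3.23 and 3.51 in iWAT. It was higher in eWAT than in iWAT (1.01 ± 0.17, adjusted p = 9.95e-04) and 1.58-fold lower in tAT than in BAT (-0.52 ± 0.17, adjusted p = 0.0114), with no overlap in either. Without the muscle-rich libraries, with tAT 3 alone for tAT, the tAT against BAT difference was -0.70, no smaller, but was not called (adjusted p = 0.104). In BAT against eWAT the call (-0.73 ± 0.17, adjusted p = 8.65e-04) was lost under the median-of-ratios scaling (-0.17, adjusted p = 0.384). In BAT against iWAT it was not called (0.28 ± 0.17, adjusted p = 0.137), but it was called higher under that scaling (0.83, adjusted p = 3.74e-04) and without iWAT 2 (0.41, adjusted p = 0.0316). Col23a1, a membrane-spanning collagen, stood at 1.37, 1.09, 0.944 and 1.09 FPKM in tAT, 0.575, 0.672, 0.595 and 0.564 in BAT, 2.11, 2.44, 3.26 and 1.82 in eWAT and 1.498, 1.47, 1.601 and 2.17 in iWAT. It was lower in BAT than in eWAT (-1.07 ± 0.12, adjusted p = 8.24e-07), with no overlap. Its higher value in tAT than in BAT (0.40 ± 0.12, adjusted p = 0.00833) was lost under the median-of-ratios scaling (adjusted p = 0.215) and turned to -0.11 under quantile normalization. Its lower value in tAT than in iWAT (-0.33 ± 0.12, adjusted p = 0.0399) was lost without tAT 2, tAT 3, tAT 4, iWAT 3 or iWAT 4 (adjusted p = 0.0563 to 0.133). In eWAT against iWAT it was called higher only without eWAT 4 (0.42, adjusted p = 0.0472).

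Col7a1, Col13a1 and Col28a1 are named after their values were seen, since they did not follow the white depots. Col7a1, the anchoring fibril collagen of skin, stood at 3.81, 3.81, 0.941 and 1.52 FPKM in tAT, 0.771, 1.13, 0.814 and 0.4005 in BAT, 0.682, 0.246, 0.367 and 0.2799 in eWAT and 0.277, 0.281, 0.322 and 0.203 in iWAT. It was higher in tAT than in iWAT (1.36 ± 0.24, adjusted p = 5.23e-04) and eWAT (1.24 ± 0.24, adjusted p = 4.78e-04), and its lowest tAT value was in the muscle-poor library tAT 3. Col7a1 passed the filter only through tAT and BAT, so part of these differences was built into its selection. With tAT 3 alone for tAT, the difference from eWAT was 0.49 (adjusted p = 0.0681). That from BAT, 0.89 ± 0.24 over all libraries (adjusted p = 0.0041), was then -0.0014 (adjusted p = 1). In BAT against iWAT it was not called (0.47 ± 0.24, adjusted p = 0.0903) but was called higher under the median-of-ratios scaling (adjusted p = 0.0129) and without tAT 3 (adjusted p = 0.0345). The 5 skin epithelium markers summed to 1.8001 to 2.57 FPKM in tAT, 0.798 to 1.15 in BAT, 2.86 to 3.48 in eWAT and 2.22 to 3.19 in iWAT. The part of skin or muscle in the Col7a1 result was not tested. The gene of the microRNA Mir711 overlaps Col7a1 on the same strand.

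Col13a1, a membrane-spanning collagen of cell adhesion sites, stood at 1.07, 0.976, 1.102 and 1.27 FPKM in tAT, 1.32, 1.72, 1.03 and 1.19 in BAT, 0.108, 0.353, 0.132 and 0.154 in eWAT and 0.409, 0.126, 0.125 and 0.246 in iWAT. It was higher in BAT than in iWAT (0.91 ± 0.11, adjusted p = 2.09e-06) and in tAT than in iWAT (0.78 ± 0.11, adjusted p = 9.91e-05), with no overlap, and tAT 3 lay within the range of the other tAT libraries. Col13a1 passed the filter only through tAT and BAT, so part of these differences was built into its selection. In tAT against BAT it was not called (-0.13 ± 0.11, adjusted p = 0.307), but it was lower under the median-of-ratios scaling (-0.45, adjusted p = 0.00229). Col28a1, a collagen known from peripheral nerve, stood at 0.899 to 1.7998 FPKM in tAT, 0.171 to 0.272 in BAT, 0.534 to 1.13 in eWAT and 0.606 to 1.38 in iWAT. It was higher in tAT than in BAT (0.96 ± 0.16, adjusted p = 6.56e-05). Its lower value in BAT than in iWAT (-0.70 ± 0.16, adjusted p = 8.61e-04) was lost under quantile normalization (adjusted p = 0.381). Its call in tAT against eWAT (0.41 ± 0.16, adjusted p = 0.0377) was lost without tAT 1, tAT 2, eWAT 1 or eWAT 4 (adjusted p = 0.0989 to 0.116) and with tAT 3 alone for tAT (0.25, adjusted p = 0.479). The 5 Schwann cell markers, at 14.5 to 20.4 FPKM in tAT, 12.4 to 17.8 in BAT, 12.1 to 14.5 in eWAT and 28.6 to 40.4 in iWAT, were highest in iWAT. Their part in the Col28a1 result was not tested. The 9 minor chains under the filter were Col9a1, Col9a2, Col9a3, Col17a1, Col19a1, Col20a1, Col22a1, Col25a1 and Col26a1, and their highest single value was 1.03 FPKM, for Col22a1.

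By class, fibrillar chains summed to 619 ± 157 in tAT, 97.3 ± 16.04 in BAT, 1072 ± 129 in eWAT and 1565 ± 463 in iWAT FPKM (SD, n = 4 each). Basement membrane chains summed to 421 ± 106 in tAT, 98.1 ± 16.2 in BAT, 826 ± 45.2 in eWAT and 779 ± 181 in iWAT. Network chains summed to 176 ± 40.7 in tAT, 33.1 ± 4.99 in BAT, 572 ± 60.2 in eWAT and 414 ± 79.01 in iWAT, and minor chains to 20.8 ± 7.62 in tAT, 10.5 ± 1.72 in BAT, 71.1 ± 16.2 in eWAT and 35.7 ± 8.25 in iWAT. The make-up of the collagen RNA also differed between depots. Fibrillar chains took 49.96% ± 1.5997 in tAT, 40.7% ± 1.05 in BAT, 42.1% ± 1.37 in eWAT and 55.6% ± 2.62 in iWAT of collagen FPKM, and basement membrane chains 34.1% ± 1.82 in tAT, 41.1% ± 2.46 in BAT, 32.6% ± 2.21 in eWAT and 28.1% ± 2.11 in iWAT. In BAT alone the basement membrane share (38.1 to 43.8%) overlapped the fibrillar share (39.3 to 41.7%). Network chains took 14.3% ± 0.948 in tAT, 13.9% ± 1.52 in BAT, 22.5% ± 0.797 in eWAT and 15.02% ± 1.27 in iWAT. Among single genes, Col4a1 took 13.1% ± 0.993 in tAT, 18.8% ± 0.779 in BAT, 9.801% ± 0.6096 in eWAT and 9.52% ± 0.646 in iWAT, and Col18a1 took 4.18% ± 0.324 in tAT, 1.16% ± 0.158 in BAT, 3.53% ± 0.581 in eWAT and 3.05% ± 0.506 in iWAT. Col27a1 took 0.416% ± 0.119 in tAT, 7.23% ± 1.2996 in BAT, 0.02496% ± 0.00336 in eWAT and 0.0384% ± 0.0196 in iWAT. These shares follow a few abundant chains and were not tested.

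The calls by class are given beside the share of all symbols called in the same comparison. In BAT against iWAT (12.7% of all symbols higher and 61.5% lower), 2 fibrillar chains were higher and 6 lower of 8 tested (median -3.88), 4 basement membrane chains lower of 5 (median -2.51) and 4 network chains lower of 6 (median -1.90), of which the network share, 66.7%, was near that of all symbols. Minor chains had 1 higher and 4 lower of 7 tested, or 57.1% lower, with a median of -0.70 beside the -0.54 of all symbols. This last split depended on the scaling: the median-of-ratios scaling gave 3 higher and 4 lower (median -0.42), and quantile normalization 3 higher and 2 lower (median -0.14). Of all symbols, the first gave 4695 higher and 4911 lower, and the second 4958 and 4646. In tAT against BAT (58.6% higher and 11.2% lower), 6 fibrillar chains were higher and 2 lower (median 2.74). The other classes had 4 basement membrane, 5 network and 5 minor chains higher, and 0, 0 and 1 lower. In tAT against eWAT (21.6% of all symbols higher and 36.0% lower), 0 basement membrane chains were higher and 5 lower of 5, 1 fibrillar higher and 5 lower of 8, 0 network higher and 4 lower of 6, and 3 minor higher and 4 lower of 7. In eWAT against iWAT (8.48% higher and 5.52% lower), network chains had 5 higher and 1 lower of 6 tested (median 0.74), minor chains 3 higher of 7, basement membrane chains 1 higher of 5 and fibrillar chains 1 lower of 8 (median -0.33). Col6a5 and Col6a6 are among these 5 network chains and passed the filter through eWAT, so their calls were partly built into their selection. The same limit holds in the other counts for Col7a1, Col11a2 and Col13a1, which passed through tAT and BAT.

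**Figure D4:**
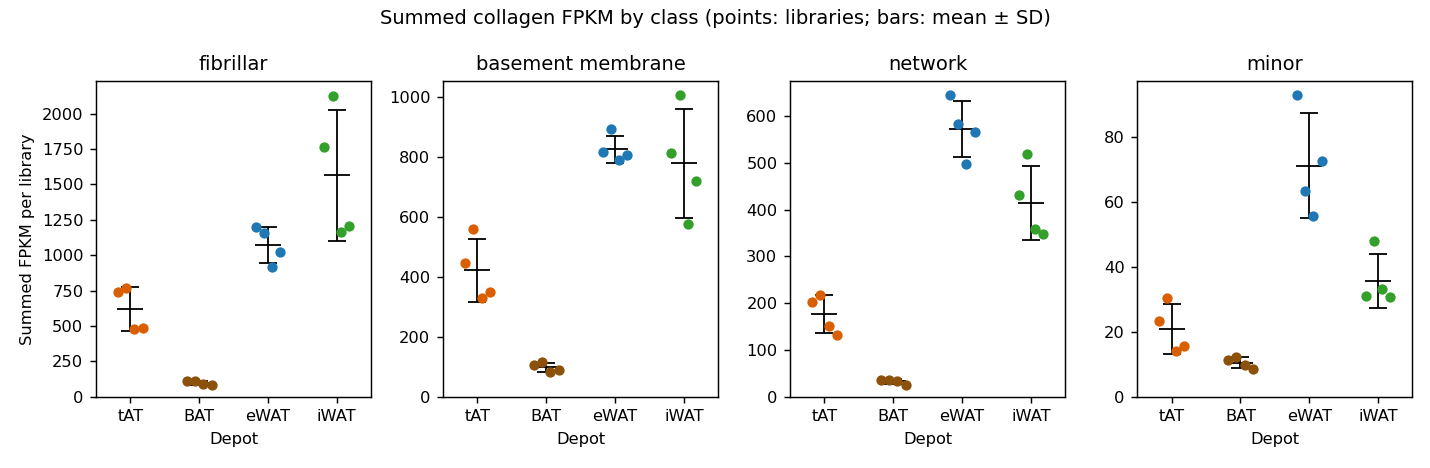
Summed FPKM (y axis, linear from 0) of fibrillar, basement membrane, network and minor collagen chains in the 4 depots (x axis); points are libraries and bars the mean ± SD. BAT is lowest in each class. By their means, fibrillar sums are highest in iWAT (1565 ± 463), and network and minor sums are highest in eWAT. Libraries of eWAT and iWAT overlap in the fibrillar and network sums.

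Chains of the same collagen type were set against each other as log2 ratios of their FPKM within a library, which scaling of whole libraries cannot change. The ratio of Col6a3 to Col6a1 was 0.075, -0.10, 0.30 and 0.27 in tAT, -0.14, -0.062, 0.073 and -0.30 in BAT, -1.99, -1.71, -1.94 and -2.0 in eWAT and -0.39, -0.36, -0.18 and -0.38 in iWAT. As geometric means, there was 1.0999 Col6a3 per Col6a1 in tAT, 0.928 in BAT, 0.266 in eWAT and 0.797 in iWAT, and every eWAT library lay below all others. The log2 ratio of Col5a1 to Col5a2 was -0.22 to 0.085 in tAT, -0.058 to 0.33 in BAT, 0.61 to 0.82 in eWAT and -0.22 to 0.024 in iWAT. Here eWAT alone stood apart from every other depot, with a geometric mean of 1.64 Col5a1 per Col5a2. For Col4a1 to Col4a2 the log2 ratio was 0.50 to 0.61 in tAT, 0.14 to 0.32 in BAT, 0.17 to 0.30 in eWAT and 0.41 to 0.45 in iWAT, with tAT and iWAT above BAT and eWAT. For Col6a1 to Col6a2 it was -0.25 to -0.11 in tAT, 0.10 to 0.21 in BAT, -0.33 to -0.075 in eWAT and -0.26 to -0.072 in iWAT, above 0 in BAT only. For Col1a1 to Col1a2 it was -0.75 to -0.32 in tAT, -0.997 to -0.91 in BAT, -1.06 to -0.56 in eWAT and -0.65 to -0.21 in iWAT, and BAT overlapped eWAT but neither tAT nor iWAT. With 4 libraries against 4, the smallest two-sided p of an exact permutation test is 0.0286, and over the 30 tests of 5 ratios in 6 comparisons its adjusted value was 0.0504. Of the 30, 0 passed 0.05 after adjustment, including the Col6a3 to Col6a1 ratio in eWAT against iWAT (difference -1.58, exact p = 0.0286, adjusted 0.0504), which was lower in each of the 4 eWAT libraries than in any iWAT library. Every comparison of a ratio without overlap between the depots gave this smallest p. The lack of calls therefore does not show that the ratios were alike.

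**Figure D5:**
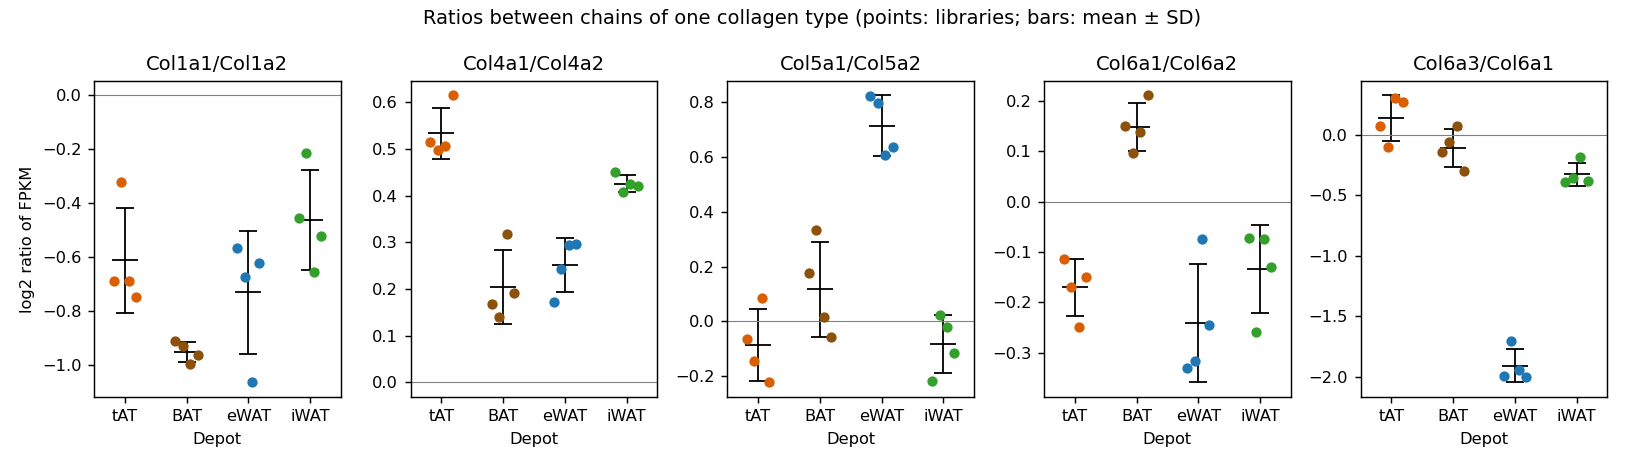
Log2 ratio of FPKM (y axis) between chains of 1 collagen type in the 4 depots (x axis) for 5 pairs of chains; points are libraries and bars the mean ± SD. Col6a3 to Col6a1 lies between -2.0 and -1.71 in eWAT, and its lowest value in any other library is -0.39.

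The genes that make, organise and sense collagen were described by lists. Of 32 genes of collagen synthesis (hydroxylases, chaperones, secretion, propeptide removal and cross-linking), 29 were tested. In BAT against iWAT, 1 was higher (12.7% of all symbols) and 27 lower (61.5%), with a median of -1.505 beside -0.54 for all symbols. In BAT against eWAT, 1 was higher (15.2%) and 27 lower (59.0%), with a median of -1.52 beside -0.52. In tAT against BAT, 26 were higher (58.6%) and 0 lower (11.2%), with a median of 0.90 beside 0.44. The median-of-ratios scaling gave 17 higher and 1 lower in tAT than in BAT, with 4172 and 3939 of all symbols. Against iWAT, 1 was higher in tAT (10.5%) and 22 lower (29.4%), and against eWAT 1 was higher in tAT (21.6%) and 19 lower (36.0%). In eWAT against iWAT, 3 were higher (8.48%) and 2 lower (5.52%). Sparc, a collagen-binding matrix protein, stood at 1524, 1874, 1157 and 1205 FPKM in tAT, 391, 362, 310.4 and 318 in BAT, 4245, 3704, 2502 and 3633 in eWAT and 3161, 4436, 2349 and 3106 in iWAT. It was lower in BAT than in iWAT (-3.21 ± 0.20, adjusted p = 1.15e-09), and its eWAT and iWAT values overlapped. Serpinh1, the collagen chaperone HSP47, had 140.4 to 172 FPKM in tAT, 100.99 to 159 in BAT, 352 to 486 in eWAT and 255 to 354 in iWAT. Its call in tAT against BAT (0.36 ± 0.15, adjusted p = 0.039) turned to -0.17 under the median-of-ratios scaling. Pcolce2, an enhancer of procollagen trimming, had 6.43 to 21.1 FPKM in tAT, 1.32 to 2.61 in BAT, 43.3 to 84.6 in eWAT and 34.1 to 89.7 in iWAT. Adamts2, which removes the amino-terminal propeptide, had 13.1 to 24.3 FPKM in tAT, 2.103 to 2.58 in BAT, 31.2 to 41.02 in eWAT and 22.3 to 36.8 in iWAT. Both were lower in BAT than in each other depot and lower in tAT than in the white depots.

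Of 12 small leucine-rich proteoglycans, which coat fibrils and regulate their assembly, 10 were tested. In BAT, 10 were lower than in iWAT (61.5% of all symbols), with a median of -2.05 beside -0.54 for all symbols. Against eWAT, 10 were lower in BAT (59.0%), with a median of -2.12 beside -0.52, and 10 were higher in tAT than in BAT (58.6%), with a median of 1.37 beside 0.44. With the median-of-ratios scaling each of these counts was 9, where 4911, 5231 and 4172 of all 14991 symbols were called in the same directions. In tAT against iWAT 0 were higher (10.5%) and 8 lower (29.4%). Under that scaling 2 were higher and 6 lower, with 2438 and 3002 of all symbols. In tAT against eWAT 1 was higher (21.6%) and 5 lower (36.0%). Dcn, decorin, had 166 to 209 FPKM in tAT, 54.5 to 74.6 in BAT, 479 to 537 in eWAT and 396 to 439 in iWAT. Prelp had 235 to 421 FPKM in tAT, 139.5 to 188 in BAT, 542 to 631 in eWAT and 354 to 692 in iWAT. Both were lowest in BAT and next lowest in tAT by their means. Fmod, fibromodulin, had 0.794 to 1.61 FPKM in tAT, 0.174 to 0.336 in BAT, 14.2 to 17.8 in eWAT and 2.25 to 3.204 in iWAT, and was higher in eWAT than in iWAT (2.13 ± 0.13, adjusted p = 1.62e-08). Podn, podocan, had 57.3 to 77.2 FPKM in tAT, 5.49 to 7.16 in BAT, 20.8 to 33.5 in eWAT and 39.8 to 72.2 in iWAT. Unlike the collagens as a group it was higher in tAT than in eWAT (1.33 ± 0.17, adjusted p = 9.23e-06).

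Of 10 collagen receptors, 7 were tested. In BAT, 6 were lower (61.5% of all symbols) and 0 higher (12.7%) than in iWAT, and 6 lower (59.0%) and 1 higher (15.2%) than in eWAT. In tAT, 6 were higher (58.6%) and 0 lower (11.2%) than in BAT, 0 higher (10.5%) and 5 lower (29.4%) than in iWAT, and 1 higher (21.6%) and 4 lower (36.0%) than in eWAT. In eWAT, 2 were higher (8.48%) and 0 lower (5.52%) than in iWAT. Itgb1, the common beta chain of collagen-binding integrins, had 82.8 to 119 FPKM in tAT, 50.5 to 53.2 in BAT, 122 to 128 in eWAT and 112 to 144 in iWAT. Its lower value in tAT than in eWAT (-0.31 ± 0.10, adjusted p = 0.0143) turned to 0.046 under quantile normalization. Ddr1, a receptor tyrosine kinase for collagen, had 21.6 to 26.7 FPKM in tAT, 2.51 to 4.24 in BAT, 45.2 to 50.5 in eWAT and 33.2 to 39.2 in iWAT. Mrc2, an endocytic receptor that clears collagen, had 4.503 to 15.2 FPKM in tAT, 1.66 to 2.44 in BAT, 18.4 to 39.4 in eWAT and 17.2 to 47.9 in iWAT. Both were lower in BAT than in each other depot. The 5 macrophage markers (Adgre1, Cd68, Csf1r, Mrc1 and Lgals3) had the order of the depots in common with many of these genes, at 57.4 to 101.1 FPKM in tAT, 6.34 to 10.9 in BAT, 435 to 1116 in eWAT and 180.3 to 343 in iWAT, and their part in these results was not tested.

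Within a depot, many collagens were high or low in the same library. Of the 26 tested chains, iWAT 2 was the highest iWAT library for 18, against 28.6% of all tested symbols, and iWAT 3 the lowest for 13, against 31.9%. BAT 2 was the highest BAT library for 18 (26.8% of all symbols) and BAT 4 the lowest for 17 (33.4%). In tAT, tAT 2 was highest for 16 (25.7%), and tAT 3 and tAT 4 were each lowest for 12 (36.6% and 22.7%), although tAT 4 held muscle RNA and tAT 3 little. In eWAT, eWAT 1 was highest for 11 (32.8%) and eWAT 3 lowest for 15 (30.2%). In each depot, libraries 1 and 2 had higher sums over the 44 genes than libraries 3 and 4. Correlations between same-numbered libraries, given in the last section, did not show a pairing, but they cannot exclude a shared mouse or batch.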

How the data were processed

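RNA-seq of 16 libraries from 4 fat depots was used. Per the labels' protocols, RNA was extracted from frozen tissue with Trizol and libraries were made with the TruSeq RNA kit from 1 µg of total RNA. The submitters' processing notes name TopHat, TopHat2 2.0.9, Cufflinks 2.1.1 and the build mm10. The authors deposited 1 table of FPKM per gene and library; the sources used here give neither the depth nor the use of strand in counting. Of the deposited FPKM values of abundant genes, 228 in 86 genes were 0 although the median was above 10, so a 0 can be a failed estimate.

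Symbols at 1 FPKM or more in at least 4 libraries (14991) were tested as log2(FPKM + 1) with limma 3.58.1 in R 4.3.3 (1 mean per depot over 16 libraries, eBayes with trend and robust), with Benjamini-Hochberg adjustment over all of them; the code was tested on simulated data. Chain ratios had exact permutation tests (scipy 1.17.1). Tables and figures used python 3.11.15, pandas 2.3.3 and matplotlib 3.10.9. Named with values were the 4 most abundant members of each class, members called at an absolute difference of 2 or more, and from each other list the 2 most abundant genes and up to 2 called genes with the largest difference; other genes are said to be chosen after their values were seen. The members, classes and lists were chosen with earlier results of these data known.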

Additional observations from a re-analysis of the deposited data

Results flagged for a closer look

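In 112 groups of 4 libraries (19 collagens named by rule, 4 class sums and 5 chain ratios, in each depot), 7 held a library whose gap to the nearest of the others took up more of the range than Dixon's 95% critical value allows. Chance flags about 1 in 20 groups, so no pattern is read from them. Col6a3 was 7.37 FPKM in BAT 4, while the other BAT libraries had 10.95, 11.4 and 11.53. Col6a5 was 0.00429 FPKM in BAT 2 and listed at 0 in the other 3 BAT libraries. Col14a1 was 15.9 FPKM in iWAT 2, while the other iWAT libraries had 11.1, 10.7 and 10.2. The log2 ratio of Col1a1 to Col1a2 was -0.32 in tAT 2, with -0.69, -0.69 and -0.75 in the other tAT libraries. The log2 ratio of Col4a1 to Col4a2 was 0.61 in tAT 4, with 0.52, 0.50 and 0.51 in the other tAT libraries. The log2 ratio of Col6a3 to Col6a1 was -0.18 in iWAT 3, with -0.39, -0.36 and -0.38 in the other iWAT libraries. The minor collagens summed to 47.98 FPKM in iWAT 2, with 30.9, 33.1 and 30.8 in the other iWAT libraries.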

How the results depend on the processing

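Of 156 differences (26 tested collagens in 6 comparisons), 122 were called; 25 of these were lost and 5 changed sign under at least 1 alternative, and 7 were lost when 1 library was left out. A filter of 5 FPKM, which tests fewer genes, left 1 collagen higher in tAT than in iWAT, 1 higher in tAT than in eWAT, 1 higher in BAT than in iWAT and 1 higher in BAT than in eWAT. Without a filter, 7 were higher in tAT than in eWAT, and without the muscle-rich libraries 2. Higher calls in BAT against iWAT numbered 6 under the median-of-ratios scaling and 7 under quantile normalization, which also gave 5 lower calls in tAT against BAT; library factors of the median-of-ratios scaling were 0.701 to 0.745 in BAT. With those factors, fibrillar chains summed to 134 FPKM in BAT and 939 in eWAT, basement membrane chains to 135 and 723, network chains to 45.7 and 502, and minor chains to 14.5 in BAT. The correlation of deviations between same-numbered libraries ran from -0.27 to 0.23 over 24 pairs. Between libraries of other numbers it ran from -0.28 to 0.33 over 72 pairs. These weak correlations did not show a pairing by replicate number, but they cannot exclude a shared mouse or batch. With the replicate number as a block, 5 collagens were lower in eWAT than in iWAT instead of 2, Col1a1, Col1a2 and Col3a1 (adjusted p = 0.00649, 0.0164 and 0.00375) beside Col5a2 and Col6a3. The block also called Col5a2 lower (adjusted p = 0.0242) and Col11a2 higher (adjusted p = 0.0272) in tAT than in eWAT, Col11a2 higher in tAT than in iWAT (adjusted p = 0.0314), and not Col23a1 in tAT against iWAT (adjusted p = 0.0639). Leaving out 1 library gave 1 to 3 for the lower calls in eWAT against iWAT (1 without any eWAT library or iWAT 1, 2 or 4, and 3 without iWAT 3), and 6 to 9 for those higher in eWAT than in iWAT. Signs changed under quantile normalization for Col23a1 (-0.11) and Col8a1 (-0.048) in tAT against BAT, Col6a6 in BAT against iWAT (0.067), Col8a1 in BAT against eWAT (0.14) and Itgb1 in tAT against eWAT (0.046). They changed under the median-of-ratios scaling for Serpinh1 in tAT against BAT (-0.17), and without the muscle-rich libraries for Col7a1 in tAT against BAT (-0.0014). Except for the filter of 5 FPKM, the cause was not tested. With FPKM alone, the depth behind low values is unknown.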
